A study of Homo sapiens with 647 samples.

Results

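The MEK inhibitor trametinib was added to fulvestrant plus FGF2 in T47D cells carrying wild-type FGFR2, and the 6 libraries with trametinib were compared with the 6 without it. These 12 libraries, of 647 in the whole series, were chosen by their treatment and line labels and not by any measured value. T47D is an estrogen receptor positive, luminal breast cancer cell line. Cells had been infected with a pLX307 lentivirus encoding the receptor, plated for 48 h in 96-well plates and treated for 24 h before SMART-Seq2 RNA sequencing, per the labels.

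Each arm is named here as the labels name it. The Fulv.FGF2 arm received 100 nM fulvestrant, an antagonist and degrader of the estrogen receptor, together with FGF2, a ligand of FGF receptors whose dose the labels do not state. The Fulv.FGF2.Tram arm received the same plus 500 nM trametinib. Fulvestrant and the lentiviral receptor were therefore common to both arms. An arm of the same line with fulvestrant alone (Fulv, 6 libraries) served for reference. So did its arm with fulvestrant, FGF2 and 100 nM of the FGFR inhibitor FIIN-3 (Fulv.FGF2.FIIN.3, 6 libraries). Further arms of this line entered only the estimate of spread in an alternative fit. They received DMSO (6 libraries), FGF2 (6) or FGF2 with 100 nM FIIN-3 (5). The last received fulvestrant and FGF2 with 1 uM of the CDK4 and CDK6 inhibitor palbociclib (6 libraries). The trametinib contrast was also set against that in 24 libraries of the GFP and parental lines and in 36 libraries of lines carrying FGFR2 M538I, N550K or K660N. The labels do not say whether libraries of an arm came from separate cultures, so the p-values below measure only how far these samples differ from each other, and that spread may be technical. The labels also do not say whether the line was a clone or a pool of infected cells.

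FGF receptors are receptor tyrosine kinases that, once bound by ligand, signal through adaptors to RAS and then through the RAF, MEK and ERK kinases. ERK switches on transcription factors of the ETS and AP-1 families, cyclin D1, and also its own inhibitors, which include the dual-specificity phosphatases (DUSP) and the Sprouty and SPRED proteins. In estrogen receptor positive breast cancer, active FGF receptor signalling is known for lowering the response to drugs aimed at the estrogen receptor. Trametinib blocks MEK, a step below the receptor, whereas FIIN-3 blocks the receptor itself.

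Total counts per library ran from 5532163 to 9385718 in the Fulv.FGF2 arm and from 6249425 to 9864743 in the Fulv.FGF2.Tram arm. The mitochondrial ribosomal RNA MT-RNR2 held 10.5 to 22.2 percent of counts in the former and 12.5 to 17.1 percent in the latter. Luminal markers were present in both arms: GATA3, a luminal transcription factor, was at 276.1 to 627.9 CPM (counts scaled to library size) in the Fulv.FGF2 arm and at 245.1 to 328.9 CPM with trametinib, and EPCAM, an epithelial surface protein, was at 216.98 to 434.8 and 212.97 to 340.5 CPM. Of 15 markers of other cell types, PTPRC, CD3E, CDH5, HBB and ALB, which mark leukocytes, T cells, endothelium, red cells and hepatocytes, were at or below 0.345 CPM in every library. The 15 markers summed to 25 to 35.8 CPM without trametinib and to 45.1 to 68 CPM with it. COL1A1, LUM and ACTA2, 3 stromal or contractile genes, made up most of that sum and were the 3 markers abundant enough to test. ACTA2, smooth muscle actin, rose by 0.95 ± 0.22, COL1A1, a fibrillar collagen, by 0.71 ± 0.21 and LUM, a stromal proteoglycan, by 1.37 ± 0.43 on the log2 scale. Of 22 alternatives the call was lost in 1 for ACTA2, 10 for COL1A1 and 16 for LUM, and in all 3 with neighbouring libraries summed. The part of these markers in the results below was not tested. In a principal component analysis of 8682 genes over 24 libraries, Fulv.FGF2 replicates 5 and 6 lay at 15 and 8.6 on the first component against -30.2 to -17.4 for the other 4. Their title numbers fall in a range that holds no Fulv.FGF2.Tram library. Without them 893 genes were called, of which 723 were among the 1148 called with all 12. Beyond this total, results without them are given by themselves only for some lists and not for single genes. In the other arm, Fulv.FGF2.Tram replicates 3 and 4 lay at 0.9 and -14.8 against -34.2 to -26.7, in a title range that holds no Fulv.FGF2 library. The fit on the ranges that hold both arms, without these 4 libraries, called 1211 genes, of which 880 were among the 1148 called with all 12.

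Trametinib lowered several genes used as readouts of ERK activity, raised some interferon, pro-apoptotic and small heat shock genes, and lowered mitotic genes to a lesser degree. With edgeR's quasi-likelihood test and Benjamini-Hochberg adjustment over 12273 genes, 574 genes were higher and 574 lower at an adjusted p under 0.05, each 4.68 percent of the genes tested. The median log2 fold change over all genes was -0.01. Among the genes called, 429 changed by more than 1 on the log2 scale and 550 had arms that did not overlap in CPM. The share of all genes tested with separated arms was not counted, so separation in a called gene is description only. A value followed by ± is a log2 fold change and its standard error from 6 libraries per arm, and levels are CPM scaled by trimmed mean of M values over the 4 arms. Levels in CPM are not divided by gene length and are compared only within a gene.

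**Figure D1:**
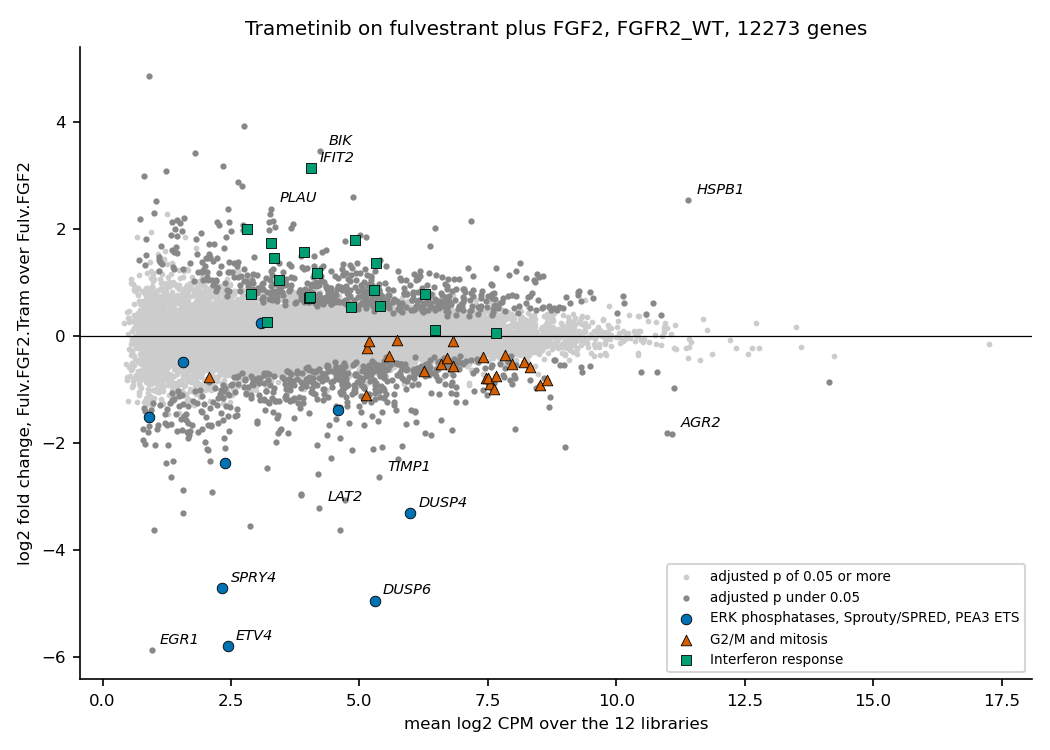
Log2 fold change of Fulv.FGF2.Tram against Fulv.FGF2 (y axis) by mean log2 CPM (x axis) for the 12273 genes tested, with ERK inhibitor and ERK factor genes as circles, G2/M genes as triangles and interferon genes as squares. The strongest falls are ERK genes such as DUSP6 at -4.95, the 23 G2/M triangles all lie below 0, and the 19 interferon squares all lie above 0.

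Most of the ERK phosphatases tested fell. Of 5 listed, 4 passed the filter on low counts and 3 fell, with a median of -2.84. DUSP6, which dephosphorylates ERK in the cytoplasm and is a standard readout of ERK activity, was at 59.6, 71.9 and 83.2 CPM (lowest, median and highest of 6) in the Fulv.FGF2 arm and at 1.38, 2.03 and 3.86 CPM with trametinib. Every library with trametinib was below every library without it, and the fold change was -4.95 ± 0.21 (adjusted p = 4.49e-12). DUSP4, a nuclear phosphatase of the same family, went from 97, 111.1 and 116.7 CPM to 7.27, 8.81 and 18.9 CPM. The arms were again apart (-3.30 ± 0.21, adjusted p = 6e-09). DUSP5, a nuclear phosphatase specific for ERK, went from 5.19, 6.97 and 13.1 CPM to 0.874, 1.40 and 2.77 CPM (-2.38 ± 0.32, adjusted p = 4.7e-05). DUSP7, a cytoplasmic ERK phosphatase, did not pass the test (-0.49 ± 0.33, adjusted p = 0.377), and DUSP9 was too low to test.

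Of 7 Sprouty and SPRED genes, 4 could be tested and 3 fell. SPRY4, which restrains the pathway from receptor to RAF, was at 4.67, 10.2 and 11.7 CPM without trametinib and at 0, 0 and 1.46 CPM with it. The latter rested on 16 reads in 2 of 6 libraries, against 409 reads in the Fulv.FGF2 arm (-4.71 ± 0.60, adjusted p = 2.58e-05). SPRED2, a membrane-bound inhibitor of RAF activation, went from 25.3, 32.7 and 43.2 CPM to 8.72, 12.1 and 16.4 CPM with no overlap (-1.39 ± 0.19, adjusted p = 6.15e-05). SPRED1, its close relative, fell by 1.51 ± 0.37 (adjusted p = 0.0131) from a median of 2.40 CPM to 0.795 CPM, with arms that touched. SPRY1, another Sprouty inhibitor, was at medians of 7.04 and 8.61 CPM and did not pass the test (0.25 ± 0.22, adjusted p = 0.521). SPRY4 and SPRED1 passed the low-count filter through the Fulv.FGF2 arm only, so a fall was built into their being tested.

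The promoters of the phosphatase and the Sprouty gene with the steepest falls are shown because both genes moved together. They were read from RefSeq on GRCh38.p14, a different build from the hg19 of the counts, and run from 250 bases before to 50 after the start site. DUSP6 lies at chr12:89352452-89352751 and SPRY4 at chr5:142324198-142324497, both on the minus strand, and capitals mark matches to the motifs searched on both strands. ETV4 and ETV5 had no entry in the table, and 4 of 6 genes looked up were matched.
DUSP6: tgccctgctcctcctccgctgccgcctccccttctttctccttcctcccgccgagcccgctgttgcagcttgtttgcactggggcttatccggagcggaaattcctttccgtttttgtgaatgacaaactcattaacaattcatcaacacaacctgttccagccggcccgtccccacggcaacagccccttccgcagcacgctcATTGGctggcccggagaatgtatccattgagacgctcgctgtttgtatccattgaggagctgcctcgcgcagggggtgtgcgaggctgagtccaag
SPRY4: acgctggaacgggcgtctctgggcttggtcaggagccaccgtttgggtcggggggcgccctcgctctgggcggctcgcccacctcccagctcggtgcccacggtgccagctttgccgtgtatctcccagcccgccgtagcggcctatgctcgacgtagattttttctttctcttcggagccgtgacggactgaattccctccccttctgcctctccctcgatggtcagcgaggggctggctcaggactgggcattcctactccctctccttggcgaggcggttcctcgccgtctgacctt
The motifs were AP-1 (TGANTCA), ETS (CCGGAA), CHR (TTTGAA) and the CCAAT box (CCAAT), which occur in 7.71, 17.2, 15.2 and 34.6 percent of 35116 promoters of this length. DUSP6 held 1 match, a reversed CCAAT box starting 46 bases before the start site, and SPRY4 held 0. No match says only that these letters are not in this window.

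ERK-responsive transcription factors split by member. ETV4, a PEA3 family ETS factor downstream of FGF receptors, was at 8.37, 10.2 and 10.7 CPM without trametinib and at 0, 0.118 and 0.498 CPM with it. That was 455 reads against 8, with no overlap (-5.80 ± 0.41, adjusted p = 1.84e-08), and ETV1 and ETV5 were too low to test. EGR1, an immediate early zinc finger factor, was at 2.07, 3.20 and 4.28 CPM in the Fulv.FGF2 arm and had 2 reads, in 1 library, with trametinib. Scaled for depth, the ratio of reads was 78.1 with a 95 percent counting interval from 21.2 to 651, which covers counting error only (-5.87 ± 0.59, adjusted p = 1.7e-06). ETV4 and EGR1 passed the low-count filter through the Fulv.FGF2 arm only, so a fall was built into their being tested.

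Of 6 AP-1 genes tested, 2 fell and 3 rose. FOSL1, the FOS family member most tied to sustained ERK activity, went from 2.89, 4.51 and 9.08 CPM to 0.126, 0.427 and 0.874 CPM (-3.31 ± 0.43, adjusted p = 3.49e-05). FOS, the founding immediate early member, went from 2.83, 3.43 and 6.35 CPM to 0.291, 0.554 and 0.851 CPM (-2.63 ± 0.35, adjusted p = 4.09e-05). In both, the arms were apart, but both passed the low-count filter through the Fulv.FGF2 arm only, so a fall was built in. In the other direction, FOSL2 rose by 1.13 ± 0.26, JUN by 0.88 ± 0.25 and JUND by 1.39 ± 0.27, with adjusted p of 0.00782, 0.0306 and 0.0018. These 3 encode further AP-1 subunits, and the libraries of the 2 arms overlapped for JUN. JUNB, a JUN relative, did not pass the test (-0.31 ± 0.24, adjusted p = 0.473).

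Of the listed or named genes, 7 passed the low-count filter through the Fulv.FGF2 arm only: EGR1, ETV4, FOS, FOSL1, SPRED1, SPRY4 and C2orf72, an uncharacterised reading frame. Another 4, BMF, HLA-DRA, KRT17 and VLDLR, passed through the trametinib arm only, 70 were not tested, and the rest passed through both. Such a gene had to differ between the arms to be tested at all. Its adjusted p, its separated arms and its place in a list count are therefore not independent support for its direction.

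Other immediate early genes went both ways, with 3 of 12 higher and 3 lower (median 0.12). PHLDA1, an ERK-induced pleckstrin homology protein, went from 36.3, 44.7 and 55.1 CPM to 6.49, 9.22 and 15.8 CPM (-2.13 ± 0.21, adjusted p = 1.39e-06). IER3, an ERK substrate that acts in survival, fell less, by 0.54 ± 0.16 (adjusted p = 0.0368), and lost its call in 12 of 22 alternatives, among them 8 that left out a single library. MYC, the growth-promoting transcription factor, was higher with trametinib: 5.89, 7.94 and 10.7 CPM became 10.9, 19.97 and 28.7 CPM (1.29 ± 0.22, adjusted p = 0.000673), with arms that did not overlap. The stress-induced phosphatase DUSP1 rose by 1.34 ± 0.18 and the stress factor ATF3 by 1.54 ± 0.28.

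Among 12 tested genes of a further list of ERK and FGF induced genes, 5 fell and 2 rose (median -0.82). This list was drawn up with earlier results of these data known, so its direction is not independent evidence. LAT2, an adaptor protein best known from immune cells, went from 25.2, 28.5 and 48.5 CPM to 1.76, 3.28 and 5.25 CPM (-3.21 ± 0.24, adjusted p = 3.14e-08). CAPN8, a calpain protease, fell by 2.96 ± 0.21, SPHK1, a sphingosine kinase, by 1.38 ± 0.23, and IVL, involucrin of the cornified envelope, by 1.58 ± 0.20. PLAU, the urokinase protease, did the opposite: it was at 1.38, 2.03 and 5.36 CPM without trametinib and at 7.30, 11.6 and 27.02 CPM with it (2.38 ± 0.40, adjusted p = 0.000592). GPRC5A, a retinoid-induced orphan receptor, rose by 0.93 ± 0.14.

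**Figure D2:**
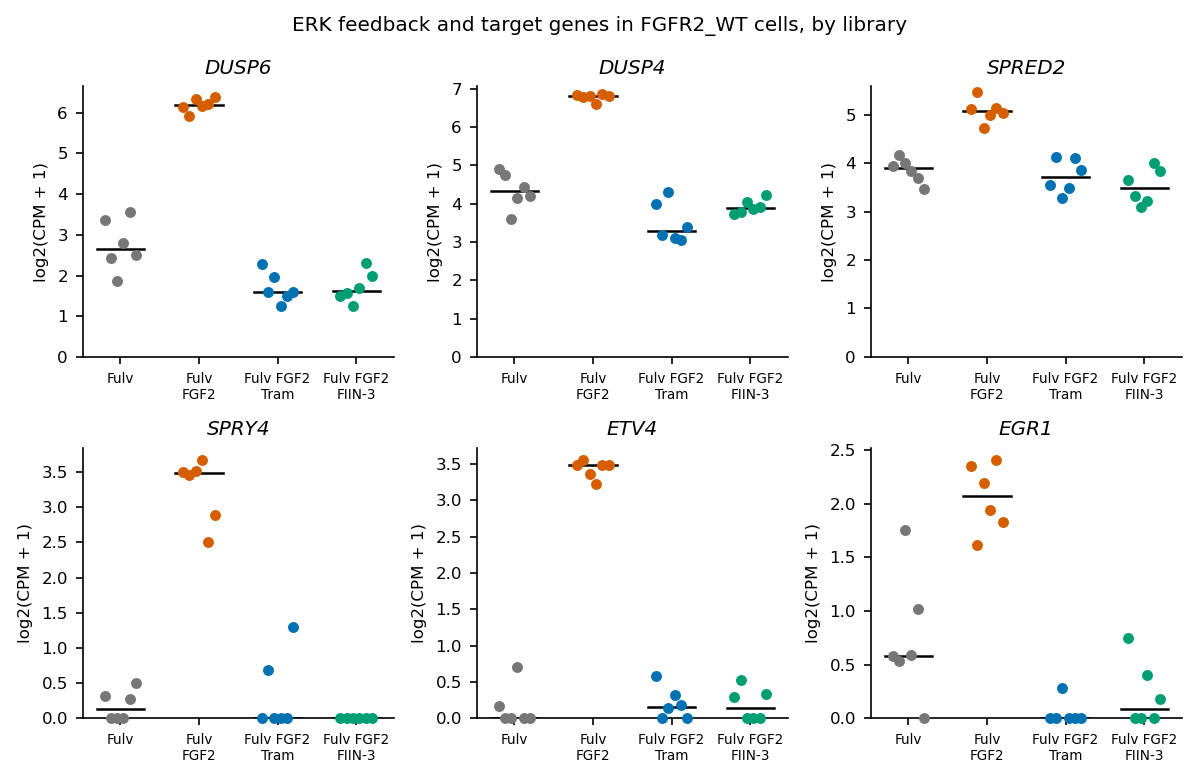
Log2(CPM + 1) of 6 ERK genes in each library of the arms Fulv, Fulv.FGF2, Fulv.FGF2.Tram and Fulv.FGF2.FIIN.3 (6 points each, bars at medians). For each of the 6 genes every Fulv.FGF2 point lies above every Fulv.FGF2.Tram point, and DUSP6 has medians of 71.9 CPM without and 2.03 CPM with trametinib. SPRY4, ETV4 and EGR1 passed the low-count filter through the Fulv.FGF2 arm only, so their fall was built in.

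The genes from FGF receptor to ERK gave no call. None of 23 tested genes from FGFR to ERK passed the test, against 4.68 percent of all genes in each direction and their fold changes ran from -0.89 to 0.68 with a median of 0.00. Over all genes, 2914 had an unadjusted p under 0.05. FGFR2 was at 198.1, 556.9 and 775.05 CPM in the Fulv.FGF2 arm and at 337.8, 867.1 and 1102 CPM with trametinib. Its arms overlapped widely (0.68 ± 0.31, adjusted p = 0.193), and reads of the lentiviral and the endogenous copy were not separated. FGFR3, a low-level receptor of the same family, had the lowest fold change, from a median of 3.32 CPM to 1.71 CPM with overlap (-0.89 ± 0.34, adjusted p = 0.106). With title ranges as a block, FGFR2 at 0.59 and FGFR3 at -1.36 passed the test, as they did on the ranges that hold both arms (0.59 and -1.35), and FGFR2 also passed with no filter on low counts (0.70). FGFR4 was at medians of 28.3 and 21.6 CPM (-0.30 ± 0.22, adjusted p = 0.437), and FGFR1 was at medians of 11.9 and 10.3 CPM (-0.08 ± 0.28, adjusted p = 0.897).

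A few genes of neighbouring receptor pathways rose, by less than 1 on the log2 scale. Of 11 tested genes for ERBB, insulin and IGF receptors and their adaptors, 3 rose and 0 fell (median 0.19). Over all genes 4.68 percent were called in each direction. The others of the list gave no call, and its count of 3 became 1 in 1 of 22 alternatives. ERBB2, the HER2 receptor, rose by 0.64 ± 0.17 (adjusted p = 0.0183), from 72.7, 90.5 and 131.4 CPM to 98.7, 160.8 and 164.4 CPM with overlapping arms. PIK3R1 and PIK3R3, regulatory subunits of PI3-kinase, rose by 0.86 ± 0.20 and 0.85 ± 0.14. Of 6 EGF family ligands tested, AREG, amphiregulin, was the 1 that changed. It went from 41.7, 55.6 and 136.02 CPM to 12.3, 16.9 and 17.8 CPM, with no overlap (-2.08 ± 0.24, adjusted p = 7.65e-06).

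Cyclin D1 fell, replication genes hardly moved, and mitotic genes fell by amounts near or below 1 on the log2 scale. CCND1, cyclin D1, the ERK-responsive partner of CDK4 and CDK6, went from 156.9, 182.4 and 247.1 CPM to 81.8, 95.05 and 103.6 CPM. No library overlapped (-1.03 ± 0.13, adjusted p = 2.55e-05). Of 26 genes of G1/S and replication, 1 fell and 0 rose, with a median of -0.08. The 1 that fell was RRM2, a ribonucleotide reductase subunit, from 450.4, 486.9 and 542.8 CPM to 271.3, 380.4 and 421.7 CPM (-0.45 ± 0.13, adjusted p = 0.0371), and its call was lost in 11 of 22 alternatives, among them 7 that left out a single library. MCM2, part of the replicative helicase, was at medians of 161.8 and 175.1 CPM and did not pass the test (0.21 ± 0.19, adjusted p = 0.518).

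Of 23 genes of G2/M and mitosis, 12 fell and 0 rose, with a median of -0.56 against -0.01 over all genes. CDC20, the activator of the anaphase-promoting complex, went from 217.5, 243.7 and 304.6 CPM to 93.1, 128.6 and 148.6 CPM (-1.0 ± 0.13, adjusted p = 3.08e-05). CCNB1, cyclin B1, the mitotic partner of CDK1, went from 382.96, 431.03 and 600.1 CPM to 202.97, 231.3 and 313.3 CPM (-0.92 ± 0.14, adjusted p = 0.000185). Both genes had arms that did not overlap. CENPE, a kinetochore motor, fell by 1.10 ± 0.17 and CENPF, a kinetochore protein, by 0.78 ± 0.13. MKI67, the proliferation antigen Ki-67, went from 95.7, 131.7 and 152.8 CPM to 66.3, 84.1 and 113.4 CPM, with overlap (-0.56 ± 0.16, adjusted p = 0.0341). Without Fulv.FGF2 replicates 5 and 6, the count of 12 G2/M genes that fell became 15. It was 8 by limma on the deposited log2 TPM values and 3 with neighbouring libraries summed. With the spread estimated over more arms of the line it was 6.

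Promoters of the cyclin B1 and CDC20 genes are shown for the mitotic genes that moved together, from the same RefSeq table and with capitals as above. CCNB1 lies at chr5:69166900-69167199 and CDC20 at chr1:43358731-43359030, both on the plus strand of GRCh38.p14.
CCNB1: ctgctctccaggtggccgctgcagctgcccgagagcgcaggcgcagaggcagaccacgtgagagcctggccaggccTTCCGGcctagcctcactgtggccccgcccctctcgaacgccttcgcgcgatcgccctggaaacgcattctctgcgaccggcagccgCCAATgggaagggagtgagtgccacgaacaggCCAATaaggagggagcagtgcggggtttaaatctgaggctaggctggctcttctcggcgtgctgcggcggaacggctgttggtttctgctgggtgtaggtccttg
CDC20: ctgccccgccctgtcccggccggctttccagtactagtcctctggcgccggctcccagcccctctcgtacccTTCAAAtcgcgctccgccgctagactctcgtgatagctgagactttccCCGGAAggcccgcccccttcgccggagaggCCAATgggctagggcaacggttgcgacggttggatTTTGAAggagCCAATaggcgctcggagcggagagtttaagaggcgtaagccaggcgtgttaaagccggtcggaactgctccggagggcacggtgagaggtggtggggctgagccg
CCNB1 held 3 matches, with an ETS motif starting at -174 and CCAAT boxes at -87 and -55 from the start site. CDC20 held 5, with an ETS motif at -130, CHR motifs at -178 and -65 and CCAAT boxes at -100 and -55. These are matches of letters and not evidence of a bound factor.

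Cell cycle inhibitors and FOXO-linked genes were mixed, with 5 of 17 higher and 2 lower (median 0.21). CDKN2B, the CDK4 and CDK6 inhibitor p15, went from 5.51, 6.75 and 10.1 CPM to 17.3, 19.1 and 24.5 CPM, with no overlap (1.49 ± 0.19, adjusted p = 2.17e-05). PDCD4, an inhibitor of translation, rose by 1.06 ± 0.15, PIK3IP1, an inhibitor of PI3-kinase, by 1.31 ± 0.30 and BTG2, an antiproliferative gene, by 1.24 ± 0.26. CDKN2C, the related inhibitor p18, fell by 1.31 ± 0.23, and FBXO32, a FOXO-induced ubiquitin ligase component, by 1.09 ± 0.22. CDKN1A, the inhibitor p21, was at medians of 91.6 and 105.9 CPM and did not pass the test (0.17 ± 0.14, adjusted p = 0.495).

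**Figure D3:**
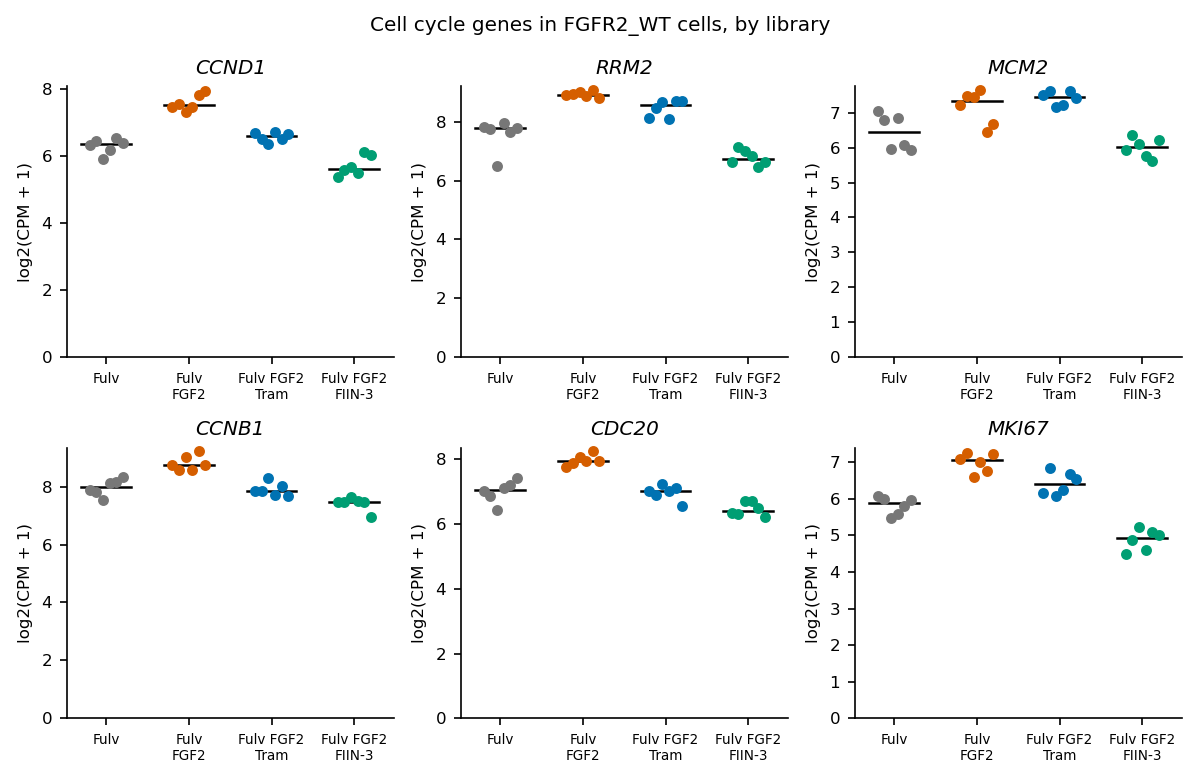
Log2(CPM + 1) of CCND1, RRM2, MCM2, CCNB1, CDC20 and MKI67 in each library of the 4 arms of the FGFR2 wild-type line (6 points each, bars at medians). With trametinib the MKI67 median is 84.1 CPM, between 131.7 CPM in Fulv.FGF2 and 29.6 CPM in Fulv.FGF2.FIIN.3, and the MCM2 median is 175.1 CPM against 161.8 and 63.8 CPM.

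Of 19 interferon genes tested, 9 rose with trametinib and 0 fell (median 0.85). The other 10 had positive log2 fold changes that did not pass the test. IRF1, a transcription factor of the interferon response, went from 2.24, 4.74 and 7.90 CPM to 8.69, 14.5 and 15.8 CPM without overlap (1.45 ± 0.26, adjusted p = 0.00106). IFIT2, an RNA-binding interferon effector, went from 0.213, 1.98 and 10.8 CPM to 5.54, 30.9 and 40 CPM (3.13 ± 0.53, adjusted p = 0.000659). Its highest Fulv.FGF2 library, replicate 1, stood apart from the other 5 of that arm. The same library was the highest for IFI27, an interferon-induced mitochondrial protein that rose by 1.99 ± 0.50 (adjusted p = 0.0145) and for which the arms overlapped. OAS1, a sensor of double-stranded RNA, rose by 1.73 ± 0.45 (adjusted p = 0.0232).

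The interferon count of 9 moved with single libraries. It was 3 without Fulv.FGF2.Tram replicate 1 or replicate 5, 5 without replicate 2, 4 without Fulv.FGF2 replicate 2, 5 without replicate 6 and 13 without replicate 1. It was 4 without Fulv.FGF2 replicates 5 and 6, 3 with neighbouring libraries summed, 5 on the title ranges that hold both arms and 16 with no filter on low counts. Of 14 MHC and antigen presentation genes, 4 rose and 0 fell (median 0.47). NLRC5, the activator of MHC class I genes, went from 0.639, 1.94 and 4.24 CPM to 1.06, 10.3 and 20.2 CPM with overlap (2.07 ± 0.51, adjusted p = 0.0132). HLA-E, a class I molecule whose reads can be shared with other HLA genes, rose by 0.51 ± 0.12, TAP1, the peptide transporter, by 0.65 ± 0.19, and PSMB9, an immunoproteasome subunit, by 0.95 ± 0.25. The MHC count was 0 with neighbouring libraries summed, 2 without Fulv.FGF2.Tram replicate 5, 7 without Fulv.FGF2 replicate 1 or without replicates 5 and 6, 8 with no filter, by DESeq2 or by limma, and 9 on the title ranges that hold both arms. TAP1 lost its call in 7 of 22 alternatives, and PSMB9 and OAS1 in 5 each.

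The rises in the BCL2 family were in pro-apoptotic BH3-only genes. Of 12 tested BCL2 family genes, 3 were higher and 0 lower (median 0.27), and all 3 were of that class. BIK, which acts at the endoplasmic reticulum, went from 1.92, 2.80 and 4.47 CPM to 19.8, 33.5 and 49.04 CPM. The lowest trametinib library was above the highest of the other arm (3.45 ± 0.26, adjusted p = 3.74e-08). BCL2L11, which encodes BIM, a protein ERK is known to mark for degradation, went from 1.56, 2.0 and 2.71 CPM to 2.91, 4.65 and 6.62 CPM (1.23 ± 0.28, adjusted p = 0.00782). BMF, linked to the cytoskeleton, rose by 2.0 ± 0.49 (adjusted p = 0.0132). BMF passed the low-count filter through the trametinib arm only, so a rise was built into its being tested.

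Of 14 heat shock chaperone genes, 3 rose, all of the small heat shock family, and 1 fell (median 0.14). HSPB1, the small chaperone HSP27, went from 570.6, 682.8 and 1013 CPM to 3305, 4559 and 5693 CPM (2.54 ± 0.17, adjusted p = 1.48e-08), with arms far apart. HSPB8, another small heat shock protein, went from 27.9, 45.6 and 87.8 CPM to 200.2, 224.1 and 264.9 CPM (2.14 ± 0.22, adjusted p = 1.74e-06). CRYAB, alpha-B crystallin, rose by 2.12 ± 0.37. BAG3, a co-chaperone that binds HSPB8, fell by 0.82 ± 0.17 (adjusted p = 0.00343).

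Estrogen receptor genes moved both ways in the presence of fulvestrant. Of 20 tested, 5 fell and 2 rose (median -0.44). AGR2, a disulfide isomerase of secretory cells, went from 2330, 2813 and 4702 CPM to 707.1, 879.9 and 1287 CPM (-1.83 ± 0.19, adjusted p = 1.9e-06). IGFBP4, an IGF-binding protein, went from 84.5, 105.7 and 154.8 CPM to 28.7, 31.3 and 40.4 CPM (-1.82 ± 0.16, adjusted p = 3.29e-07). The arms were apart for both, and CA12, a carbonic anhydrase, and STC2, a secreted glycoprotein, fell by 1.33 ± 0.21 and 1.15 ± 0.15. ESR1, the receptor itself, rose by 0.73 ± 0.18 (adjusted p = 0.0113) from 16.9, 22.1 and 28.5 CPM to 27.8, 36.3 and 46.1 CPM, with slight overlap. PGR, the progesterone receptor, rose by 0.86 ± 0.21 (adjusted p = 0.00999). The textbook targets TFF1 and GREB1 did not pass the test, at -0.38 ± 0.42 and 0.00 ± 0.23.

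Of 17 tested luminal genes, 4 rose and 4 fell (median 0.04). ELF3, an epithelial ETS factor, went from 75, 76.2 and 85.97 CPM to 145.6, 178.3 and 242.8 CPM (1.28 ± 0.13, adjusted p = 1.95e-06). BCAS1, a gene amplified in some breast cancers, rose by 1.76 ± 0.16 and ELF5, a factor of alveolar differentiation, by 1.06 ± 0.12. GATA3 fell by 0.79 ± 0.18 and TFAP2A, a factor of luminal gene control, by 0.89 ± 0.13. KRT18, a simple epithelial keratin with processed copies in the genome that make its count uncertain, fell by 0.85 ± 0.17. Of 10 basal and mesenchymal genes tested of 21, 2 rose and 2 fell. CXCR4, a chemokine receptor, fell by 1.48 ± 0.30 and ANXA1, annexin A1, by 1.22 ± 0.22, while KRT17, a basal keratin with near-identical copies, rose by 1.87 ± 0.45. KRT17 passed the low-count filter through the trametinib arm only, so a rise was built into its being tested.

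**Figure D4:**
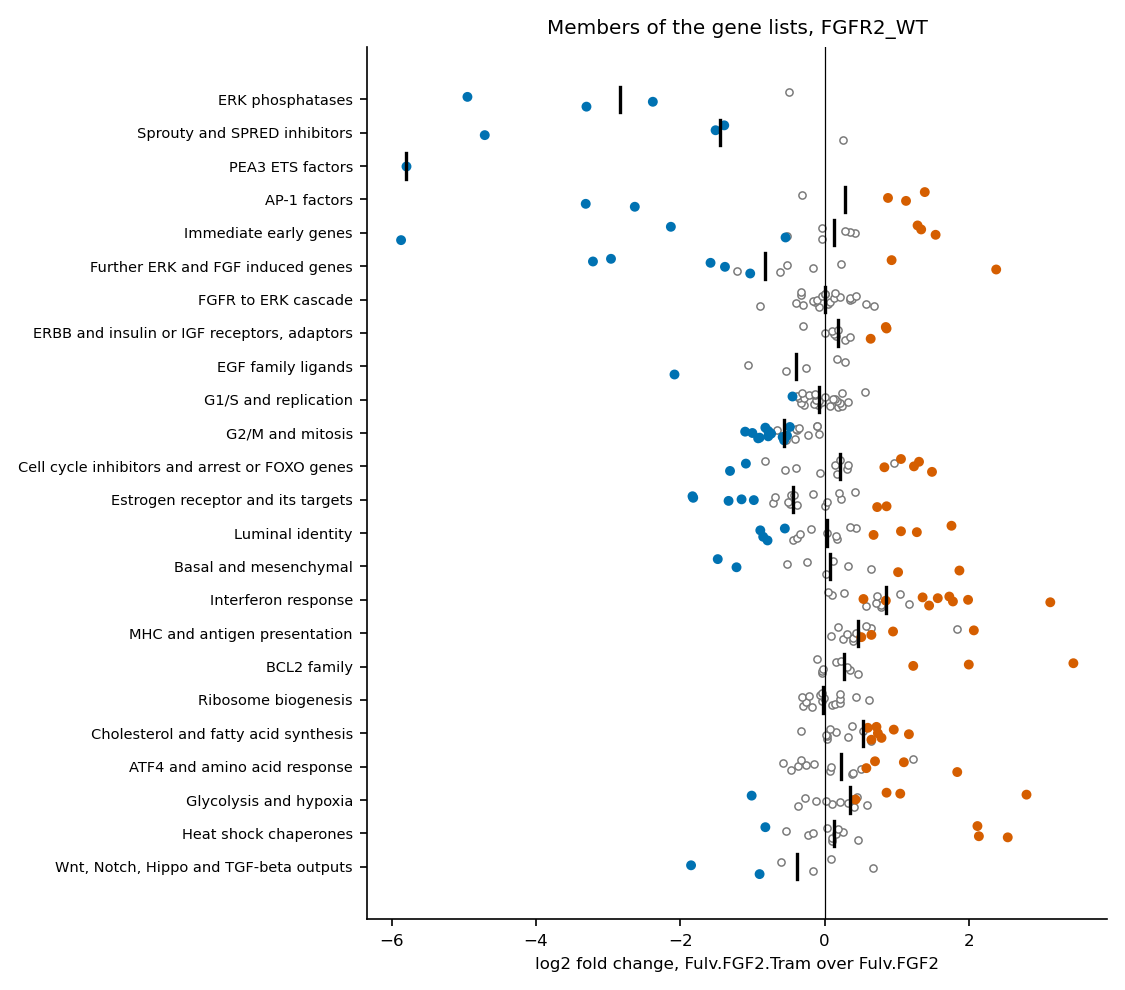
Log2 fold change of Fulv.FGF2.Tram against Fulv.FGF2 for the tested members of 24 gene lists, 1 point per gene, filled where the adjusted p was under 0.05 (orange higher, blue lower), with a bar at each list's median. The ERK phosphatases have the lowest median of the lists with 4 or more tested genes at -2.84, G2/M genes lie at -0.56 and interferon genes at 0.85.

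Genes outside the lists were among the largest changes with separated arms. GPNMB, a lysosomal glycoprotein, went from 4.82, 7.21 and 13.2 CPM to 29.1, 47.4 and 65.4 CPM (2.59 ± 0.23, adjusted p = 4.39e-07). VTCN1, the immune checkpoint ligand B7-H4, rose by 2.01 ± 0.17, KLHL24, a ubiquitin ligase adaptor, by 2.08 ± 0.26, CFB, complement factor B, by 1.98 ± 0.33 and FSTL3, a binder of activin, by 1.88 ± 0.18. SECTM1, a secreted and transmembrane ligand of T cells, rose by 2.14 ± 0.31.

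In the lower direction, ACOX2, a peroxisomal oxidase of bile acid synthesis, went from 28.8, 42.5 and 60.03 CPM to 1.02, 3.96 and 5.53 CPM (-3.62 ± 0.30, adjusted p = 1.63e-07). TIMP1, an inhibitor of metalloproteinases, went from 53.7, 59.4 and 99.2 CPM to 7.66, 10.97 and 13.96 CPM (-2.63 ± 0.20, adjusted p = 3.14e-08). In both genes the arms were far apart. TNS4, a focal adhesion protein, fell by 3.06 ± 0.31, RAPGEF3, the cAMP-activated exchange factor EPAC1, by 2.57 ± 0.33 and PLXDC2, a transmembrane protein, by 2.47 ± 0.20. KRT81, a hair keratin, and MT2A, a metallothionein, fell by 2.98 ± 0.49 and 2.30 ± 0.19, and both have near-identical relatives that make their counts uncertain.

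The next comparisons set the trametinib arm and the Fulv.FGF2 arm against fulvestrant alone. They share arms with the contrast above, so their values are given side by side and no agreement between them is counted. FGF2 added to fulvestrant raised 937 genes (7.47 percent of those tested) and lowered 946 (7.54 percent). The Fulv.FGF2.Tram arm, set against Fulv, had 1711 genes higher (13.8 percent) and 1740 lower (14 percent), the latter 9.28 percent without Fulv.FGF2.Tram replicate 2.

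DUSP6 was at 2.67, 5.33 and 10.7 CPM in the Fulv arm, which is 3.50 ± 0.27 below Fulv.FGF2. With trametinib it lay below fulvestrant alone, by 1.44 ± 0.35 on the log2 scale (adjusted p = 0.00855), and DUSP4 lay below it by 0.87 ± 0.28 (adjusted p = 0.0296). DUSP5 and SPRED2 did not differ from Fulv by the test, at 0.12 ± 0.57 and -0.10 ± 0.20, with adjusted p of 0.893 and 0.734. Against Fulv, 8 of 12 genes of the further ERK and FGF list were higher in the trametinib arm and 1 lower. LAT2 was 1.77 ± 0.36 and IVL 2.13 ± 0.23 above Fulv, and PLAU was 6.18 ± 0.62 above Fulv, where its median was 0.168 CPM.

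With all Fulv libraries kept, about as many cell cycle genes passed the test against fulvestrant alone as did not. Over all genes, 13.8 percent were higher and 14 percent lower. Of 26 G1/S genes, 13 were higher and 0 lower than in Fulv (median 0.54), and of 23 G2/M genes 11 were higher and 0 lower (median 0.47), with 8 of the 23 at a fold change below 0. MCM2 was 0.92 ± 0.23 above Fulv (adjusted p = 0.00901) and MKI67 0.63 ± 0.18 above it (adjusted p = 0.0185). CCNB1 and CDC20 did not differ from Fulv by the test, at -0.08 ± 0.18 and -0.05 ± 0.18, with adjusted p of 0.762 and 0.861.

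By smallest adjusted p, the genes most clearly above Fulv included GDF15, a stress-induced cytokine (3.06 ± 0.25), HSPB8 (3.0 ± 0.25), FSTL3 (2.45 ± 0.16) and SDC1, a heparan sulfate proteoglycan that binds growth factors (2.14 ± 0.18). Those most clearly below it included FGF12, a member of the FGF family that is not secreted, at 11.7, 15.9 and 41.2 CPM in Fulv and at 0.583, 0.877 and 1.06 CPM with FGF2 and trametinib (-4.40 ± 0.34, adjusted p = 4.74e-06). SELENBP1, a selenium-binding methanethiol oxidase, lay 1.87 ± 0.16 below Fulv and FBP1, a gluconeogenic phosphatase, lay 1.56 ± 0.16 below it. FGF12 was at 0.722 to 2.20 CPM in Fulv.FGF2, so among the 4 arms it was low in the pair with FGF2 and no FIIN-3, and its median with FIIN-3 was 13.4 CPM. One Fulv library, replicate 3, stood apart with 1.85 percent of counts in MT-RNR2, and it is part of every test against Fulv above. Without it FGF2 raised 12.2 percent, and the trametinib arm against Fulv had 4348 genes called and not 3451. Only the genes named by smallest adjusted p were retested without it. DUSP6, DUSP4, DUSP5, SPRED2, LAT2, IVL, PLAU, MCM2, MKI67, CCNB1, CDC20 and all list counts against Fulv were not. How far the calls among these depend on that library was therefore not tested. The lack of a call for DUSP5, SPRED2, CCNB1 and CDC20 is not evidence of equal levels.

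With the receptor blocked instead of MEK, the same phosphatases were low and cell cycle genes lay lower. FIIN-3 added to fulvestrant plus FGF2 raised 2088 genes (16.9 percent) and lowered 2174 (17.6 percent). The drugs were given at different doses, so these counts stand beside those for trametinib and are not compared. Set directly against the FIIN-3 arm, the trametinib arm had 2482 genes higher (20.2 percent) and 2208 lower (17.9 percent).

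DUSP6 was at 1.40, 2.09 and 3.94 CPM with FIIN-3, and the trametinib arm differed from it by -0.01 ± 0.35 (adjusted p = 0.981). None of the 4 ERK phosphatases tested differed between the inhibitors by the test, with fold changes from -0.37 to 0.31. In contrast, all 26 G1/S genes were higher with trametinib than with FIIN-3 (median 1.19), as were 22 of 23 G2/M genes (median 1.13). MKI67 was at 21.4, 29.6 and 36.9 CPM with FIIN-3, 1.58 ± 0.16 below the trametinib arm (adjusted p = 2.06e-08). MCM2 was 1.43 ± 0.13 and CCND1 0.86 ± 0.14 higher with trametinib than with FIIN-3.

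Of 12 genes in the further ERK and FGF list, 10 were higher with trametinib than with FIIN-3 and 1 was lower, EMP1, an epithelial membrane protein (-1.05 ± 0.41). Of 19 interferon genes, 14 were higher and 1 lower (median 1.66). IFIT3, an interferon effector, was at 21.1, 42.6 and 64.2 CPM with trametinib and at 0, 0.737 and 1.40 CPM with FIIN-3 (5.92 ± 0.34, adjusted p = 2.04e-12). SDC1 was 2.55 ± 0.14 and PFKP, a phosphofructokinase, 1.76 ± 0.12 higher with trametinib. SELENBP1 was 2.37 ± 0.11 on the log2 scale higher with FIIN-3, with medians of 258.3 CPM there and 51.7 CPM with trametinib. DUSP15, a phosphatase outside the ERK group, was also higher with FIIN-3, at -4.41 ± 0.28 for trametinib against FIIN-3.

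The last comparisons ask whether the trametinib contrast differs between lines. In a single fit with GFP and parental cells, the contrast was higher in the FGFR2 wild-type line for 2.85 percent of 13593 genes and lower for 2.11 percent, or 3.27 percent without Fulv.FGF2.Tram replicate 3. Levels in these comparisons were scaled over the lines compared, so they differ slightly from those above. FGFR2 was at 3.65 to 28.3 CPM in the control lines. DUSP6 fell in both settings, by 4.94 ± 0.24 in the wild-type line and by 3.94 ± 0.18 in the control lines, and the difference was -1.0 ± 0.30 (adjusted p = 0.039). DUSP6 in the Fulv.FGF2 arms had medians of 16.3 CPM in GFP and 17.1 CPM in parental cells. For HSPB1 the contrast was 2.70 ± 0.12 in the control lines, a difference of -0.16 ± 0.19 (adjusted p = 0.741). For CCNB1 it was -0.65 ± 0.10, a difference of -0.27 ± 0.17 (adjusted p = 0.449), and 0 of 23 G2/M genes passed the test of the difference.

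LAT2 was at 1.11 to 5.15 CPM in the control lines without trametinib, and its contrast there was -0.09 ± 0.20. The difference was -3.12 ± 0.32 (adjusted p = 4.23e-09). AREG, at medians of 9.16 CPM in GFP and 8.76 CPM in parental cells without trametinib, went up there (0.51 ± 0.16) while it fell in the wild-type line, a difference of -2.59 ± 0.27 (adjusted p = 5.02e-09). PHLDA2, an imprinted growth regulator, behaved the same way, with 0.58 ± 0.13 in the control lines and a difference of -2.34 ± 0.22. KRT18 had a contrast of 1.06 ± 0.12 in the control lines and KRT8, its partner, 1.36 ± 0.10, with differences of -1.91 ± 0.21 and -1.74 ± 0.18. Without trametinib KRT18 had medians of 19541 CPM in the wild-type line, 5398 CPM in GFP and 5012 CPM in parental cells. With it they were 11735, 12672 and 11675 CPM, so the lines differed mainly in the level without trametinib. Both keratins have processed copies, among them KRT8P45, which makes their counts uncertain.

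In the other direction, BIK stayed at medians of 3.04 and 2.60 CPM with trametinib in GFP and parental cells (contrast 0.10 ± 0.20), and the difference was 3.36 ± 0.33 (adjusted p = 2.81e-09). ST6GAL1, a sialyltransferase, had a contrast of -0.74 ± 0.11 in the control lines and of 1.42 ± 0.17 in the wild-type line, a difference of 2.17 ± 0.20 (adjusted p = 7.31e-10). For KLHL24 the difference was 2.32 ± 0.25. Both genes started lower in the wild-type line. Without trametinib, ST6GAL1 had medians of 20.8 CPM there, 60.1 CPM in GFP and 53.2 CPM in parental cells. Those of KLHL24 were 4.59, 13.9 and 11.6 CPM. Interferon genes leaned the same way: 12 of 19 had a higher contrast in the wild-type line and 0 a lower one (median 1.42). Over all genes 2.85 percent had a higher and 2.11 percent a lower one. The interferon count used the same wild-type libraries as the one that moved with single libraries, and it was not repeated under any alternative. NLRC5 had a contrast of -1.60 ± 0.31 in the control lines and a difference of 3.67 ± 0.51 (adjusted p = 3.46e-06).

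**Figure D5:**
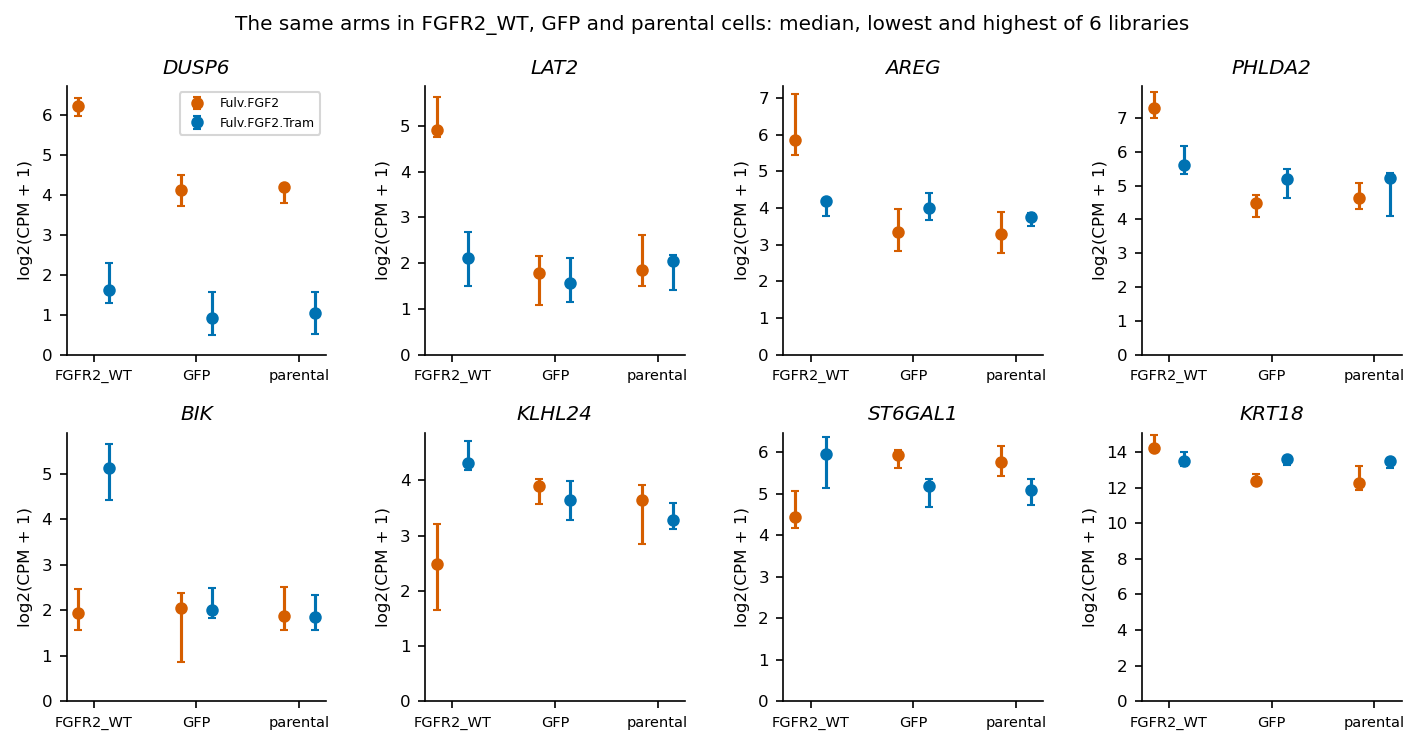
Median (point) with lowest and highest (bars) log2(CPM + 1) of 8 genes in the FGFR2 wild-type, GFP and parental lines, in the Fulv.FGF2 and Fulv.FGF2.Tram arms, 6 libraries each. DUSP6 falls in each line, BIK has a trametinib median of 34.1 CPM in the wild-type line against 3.04 and 2.60 CPM in the control lines, and LAT2 and AREG without trametinib are higher in the wild-type line than in the control lines.

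Against the lines with mutant FGFR2, no gene passed the test of the difference by edgeR among 13843 tested (0 percent higher and 0 percent lower, with 2.67 percent at an unadjusted p under 0.05), and DESeq2 called 0 as well, with 3.4 percent unadjusted. The fit gave the mutant lines a common trametinib contrast, so differences among these lines added to the spread. The lack of calls is therefore not evidence that the contrasts were alike. The contrast of DUSP6 was -5.27 ± 0.14 over the mutant lines, a difference of 0.32 ± 0.26 (adjusted p = 0.958). BIK had 2.27 ± 0.19 there and a difference of 1.18 ± 0.39, and AREG had -0.93 ± 0.24 and a difference of -1.17 ± 0.48, both with an adjusted p of 0.958. These standard errors leave room for differences of more than 1 on the log2 scale in BIK and AREG. The fit held 2 weak libraries of the Fulv.FGF2.Tram arms. They were K660N replicate 3, with 2382455 counts and 1.22 percent in MT-RNR2, and M538I replicate 1, with 1505020 counts. Without these libraries 0 genes were called, with 3 percent at an unadjusted p under 0.05 by edgeR.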

How the data were processed

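The deposited table of read counts per gene (54592 genes, 647 libraries) was used as the authors made it, without normalization. The submitters' processing notes name STAR and hg19; no version, counting program or annotation is given in the sources used here. The second deposited table held log2 values, which behave as log2(TPM + 1) since they sum back to 1e+06 per library, and 12 of its columns entered 1 alternative. Of the count columns, 107 were used and 540 were not used here, nor were 635 columns of the log2 table.

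Groups came from the labels. Each comparison used its own libraries in edgeR 4.0.16 under R 4.3.3: trimmed mean of M values scaling, filterByExpr at its minimum count of 10, the quasi-likelihood test and Benjamini-Hochberg adjustment over all genes tested, with a threshold of 0.05. A standard error is the absolute log2 fold change divided by the square root of the F statistic. Differences between lines were interaction terms, with a common trametinib contrast fitted to the GFP and parental lines or to the mutant lines. The fit was tested on simulated data with known changes. Replicates of an arm differed by 4.79 to 71.8 times the sampling noise (chi-square per degree of freedom), and neighbouring title numbers by 4.79 to 18.6 times. No pair agreed within sampling noise, which does not show that libraries came from separate cultures.

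The comparison, the 25 gene lists (392 genes) and the tests were chosen with earlier results of these data known. Genes named are the receptors, called members of the ERK phosphatase, Sprouty, PEA3 and AP-1 lists, and up to 4 called members of each other list per direction or a textbook marker that did not pass. Named too are the 12 largest changes per direction with mean log2 CPM of at least 3 and separated arms, and up to 6 genes per direction in the other tests. MKI67, MCM2, EPCAM, EMP1 and SPHK1 are named outside this rule, as are further comparisons of a named gene, both after their values were seen. Alternatives were DESeq2 1.42.0 (size factors and Wald test), no or another filter on low counts, and limma 3.58.1 on the log2 values. Further ones were title-number ranges as a block, neighbouring libraries summed and leaving out each library. Another estimated the spread over all arms of the line named in the opening, which are not all of its treatments. Leaving out Fulv.FGF2 replicates 5 and 6, and single libraries in the further comparisons, was chosen after seeing the data.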

Additional observations from a re-analysis of the deposited data

Results flagged for a closer look

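Among the groups of 6 libraries examined (a named gene or the total count in an arm), 8.78 percent had 1 library far from the other 5 by Dixon's criterion, which chance alone gives in about 1 of 20 groups. Fulv.FGF2 replicate 1 was apart and high for the interferon genes IFIT2 (10.8 CPM), IFIT3 (48.3 CPM), IFI27 (8.19 CPM) and OAS1 (13.1 CPM) and for LUM (9.39 CPM), a stromal proteoglycan. Fulv.FGF2 replicate 5 was apart and high for FOS (6.35 CPM), FOSL1 (9.08 CPM), AREG (136.02 CPM), LAT2 (48.5 CPM), IVL (209.9 CPM), KRT81 (67 CPM), GDF15 (86.2 CPM) and ELF3 (86 CPM). Replicate 6 of the same arm was apart for HLA-E (224.6 CPM).

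In the trametinib arm, replicate 3 was apart for STC2 (386.98 CPM), GDF15 (102.7 CPM), PHLDA2 (69.4 CPM), JUN (26.8 CPM) and EGR1 (0.213 CPM, the only library of that arm with reads of it), and it was the low library for ERBB2 (98.7 CPM). Replicate 4 was the low library for DUSP1 (23.2 CPM) and IRF1 (8.69 CPM), and replicate 2 was high for IFI27 (21 CPM).

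The trametinib contrast differed between the FGFR2 wild-type line and the control lines, by the interaction test, for 2.85 percent of genes in the higher and 2.11 percent in the lower direction. By smallest adjusted p, the differences in the higher direction were ST6GAL1 (2.17), BIK (3.36), RARRES3, a retinoid-induced phospholipase (2.28), KLHL24 (2.32), PSMB9 (2.21) and FAM102A (1.22). Those in the lower direction were PHLDA2 (-2.34), LAT2 (-3.12), AREG (-2.59), KRT8 (-1.74), its processed copy KRT8P45 (-1.87) and KRT18 (-1.91).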

How the results depend on the processing

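Calls are given as percents of the gene total of each reported fit. For trametinib, 2.83 percent were lower with the spread estimated over more arms of the line. With neighbouring libraries summed, 1.3 percent were higher and 1.37 percent lower. With limma on log2 TPM 2.88 percent were lower, and higher genes made up 63.5 percent of those called and not 50 percent. Leaving out 1 library at a time gave 3.28 to 5.89 percent higher and 3.24 to 5.97 percent lower. That range was 5.22 to 12.2 and 5.11 to 10.1 for FGF2, 10 to 18.5 and 9.28 to 16.4 for trametinib against Fulv, 14.9 to 17.7 and 15.6 to 18.1 for FIIN-3, 18 to 22.3 and 15.7 to 20.7 for trametinib against FIIN-3, and 2.24 to 3.16 and 1.5 to 3.27 for the difference from the control lines. Without the library of low MT-RNR2 (Fulv replicate 3), FGF2 raised 12.2 percent. The value of 9.28 came without Fulv.FGF2.Tram replicate 2 and that of 3.27 without its replicate 3. With no filter on low counts, 0.0144 percent were higher and 0.00722 percent lower in the difference from the mutant lines. FGFR1, at -0.08 with no call, ran from -0.35 to 0.07 with single libraries left out and was 0.02 without Fulv.FGF2.Tram replicate 2 or 3, and 0.19 with title ranges as a block or with ranges holding both arms. The causes were not tested. For trametinib, 1182 genes were called with title ranges as a block (887 of them among the reported calls), 893 without Fulv.FGF2 replicates 5 and 6, and 1532 by DESeq2, against 1148. Of 22 alternatives, the call was lost in 5 for JUN and in 3 each for SPRED1, ERBB2, PIK3IP1 and KRT17. ERK phosphatases lower numbered 3, and heat shock genes higher 3, under every alternative run. The labels give no replicate numbers, so title ranges were the blocks that could be fitted. At these depths genes under about 1.32 CPM in both arms were mostly not tested.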

Other observations

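Lipid, amino acid and stress genes also moved with trametinib. Of 17 genes of cholesterol and fatty acid synthesis, 7 rose and 0 fell (median 0.53). LSS, lanosterol synthase, went from 38.5, 46.3 and 57.9 CPM (lowest, median, highest) to 77.1, 105.8 and 136.7 CPM, with no overlap (1.17 ± 0.16, adjusted p = 5.21e-05). SCD, the stearoyl-CoA desaturase, and DHCR7, which makes the last step to cholesterol, rose by 0.72 and 0.74 on the log2 scale. The count was 4 without Fulv.FGF2 replicates 5 and 6 and 1 with neighbouring libraries summed.

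Of 16 genes of the ATF4 and amino acid response, 4 rose and 0 fell (median 0.24). SLC7A5, the large neutral amino acid transporter, went from 180.5, 225.6 and 252.9 CPM to 439.1, 466.99 and 516.9 CPM (1.10 ± 0.13, adjusted p = 8.95e-06), and its partner SLC3A2 rose by 0.70. DDIT4, an inhibitor of mTORC1, went from 8.94, 14.7 and 17.9 CPM to 36.8, 51.1 and 70.4 CPM (1.84 ± 0.19, adjusted p = 1.7e-06). Neither pair of arms overlapped. Of 16 glycolysis and hypoxia genes, 4 rose and 1 fell (median 0.35). NDRG1, a hypoxia-induced differentiation gene, went from 0.722, 1.5 and 2.36 CPM to 8.16, 10.1 and 13.9 CPM (2.80 ± 0.28, adjusted p = 1.39e-06), whereas EGLN3, an oxygen-sensing hydroxylase, fell by 1.01.

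ID1, an inhibitor of differentiation induced by BMP signalling, went from 104.4, 122.4 and 164.5 CPM to 25.2, 34.1 and 45.2 CPM (-1.85 ± 0.16, adjusted p = 3.18e-07), and HES1, a Notch target, fell by 0.90 but lost its call in 13 of 22 alternatives. They were the 2 of 6 tested genes of Wnt, Notch, Hippo and TGF-beta outputs that changed. None of 16 ribosome biogenesis genes passed the test, with a median of -0.02.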
